A study of Bos taurus with 6 samples.

Results

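The inhibin, activin, follistatin and AMH system was examined in cumulus cells of cattle, which surround the oocyte in its follicle. The system was taken as 8 genes fixed by name: INHA, INHBA, INHBB, FST, FSTL1, FSTL3, AMH and AMHR2. A gene was measured where a probe set of the array carried its symbol as the sole symbol in the platform annotation, which held for 5 of the 8 genes, out of 9155 genes named on the array. INHA, INHBA, FST, FSTL3 and AMH had 1 probe set each, and INHBB, FSTL1 and AMHR2 were not analysed here.

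Inhibins and activins are secreted dimers built from shared subunits. The alpha subunit (INHA) joined to a beta subunit gives inhibin, while beta subunits joined to each other give activin, so the supply of each subunit bears on which hormone a granulosa cell can make. Follistatin (FST) and its relative FSTL3 bind activin outside the cell and block its access to receptors. AMH, anti-Müllerian hormone, is made by granulosa and cumulus cells of growing follicles, acts through its own receptor AMHR2, and is known for restraining follicle recruitment and the response to FSH.

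RNA came from pools of cumulus cells stripped by pipetting from complexes with compact cumulus and an even cytoplasm, out of slaughterhouse ovaries of crossbred cows (Bos indicus x Bos taurus). Large-follicle arrays (n = 3) held cells from follicles of 8 mm or more, whose complexes the submitters call competent, and small-follicle arrays (n = 3) held cells from follicles of 1 to 3 mm, whose complexes they call incompetent. The question is how these genes differ with follicle size, which the study uses as a model of the capacity of the oocyte to form a blastocyst. Neither group received a treatment, and the sources used here give neither the ages of the cows nor how many stood behind each pool. The p-values therefore rest on the spread between pools, which may be technical in part. In pools of this kind, fewer cells of a type and less RNA per cell cannot be told apart.

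Values are log2 signals that the authors made with RMA, a method that corrects background and puts arrays on a common scale; 1 unit is a 2-fold difference. Array medians lay between 5.64 and 5.68, and the number of arrays limits the precision. Probe sets differ in how strongly they bind, so a signal is compared between arrays and not between genes. Differences are large minus small follicles, with their standard errors (SE), from a limma fit over 24016 probe sets, and a gene passed where its Benjamini-Hochberg adjusted p was below 0.05. Among markers that define granulosa and cumulus cells, SERPINE2 averaged 14.01 ± 0.03 in large-follicle and 13.82 ± 0.01 in small-follicle arrays (SD, n = 3 each), and HSD17B1 12.89 ± 0.07 in large-follicle and 12.79 ± 0.24 in small-follicle arrays. The transcription factor FOXL2 was dim, at 4.89 ± 0.16 in large-follicle and 4.58 ± 0.20 in small-follicle arrays (SD, n = 3 each). Of 8 oocyte markers 0 passed by limma in either direction, with 1 higher and 0 lower at an unadjusted p below 0.05. Their mean level was 4.19 to 4.26 in large-follicle and 4.04 to 4.24 in small-follicle arrays. With small-follicle replicate 2 left out, 1 of these 8 oocyte markers was called higher.

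Both measured inhibin subunits, INHBA and INHA, were more abundant in large-follicle cumulus cells, whereas no difference was detectable for AMH. INHBA was 2.21-fold higher in large-follicle arrays and INHA 1.34-fold higher. The INHBA call held in each of 15 alternative settings, whereas the INHA call was lost in 6 of 15. The ratio of INHBA to INHA was 1.65-fold higher (exact permutation test, p = 0.1, the lowest value that 3 against 3 arrays can give). FST and FSTL3 read 1.17-fold and 1.21-fold higher and did not pass. Of the 5 measured genes, 2 rose and 0 fell by limma at an adjusted p below 0.05. The share of all probe sets called at that threshold was 5.72% higher and 7.16% lower. At an unadjusted p below 0.05, 4 of the 5 were higher and 0 lower, a looser mark that many probe sets reach. The share of all probe sets that reach it in each direction was not counted, so nothing about the system is read from this count. FSTL3, with the largest of those 4 p-values (limma, unadjusted p = 0.0365), ranked 5764 of 24016 probe sets by p.

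**Figure D1:**
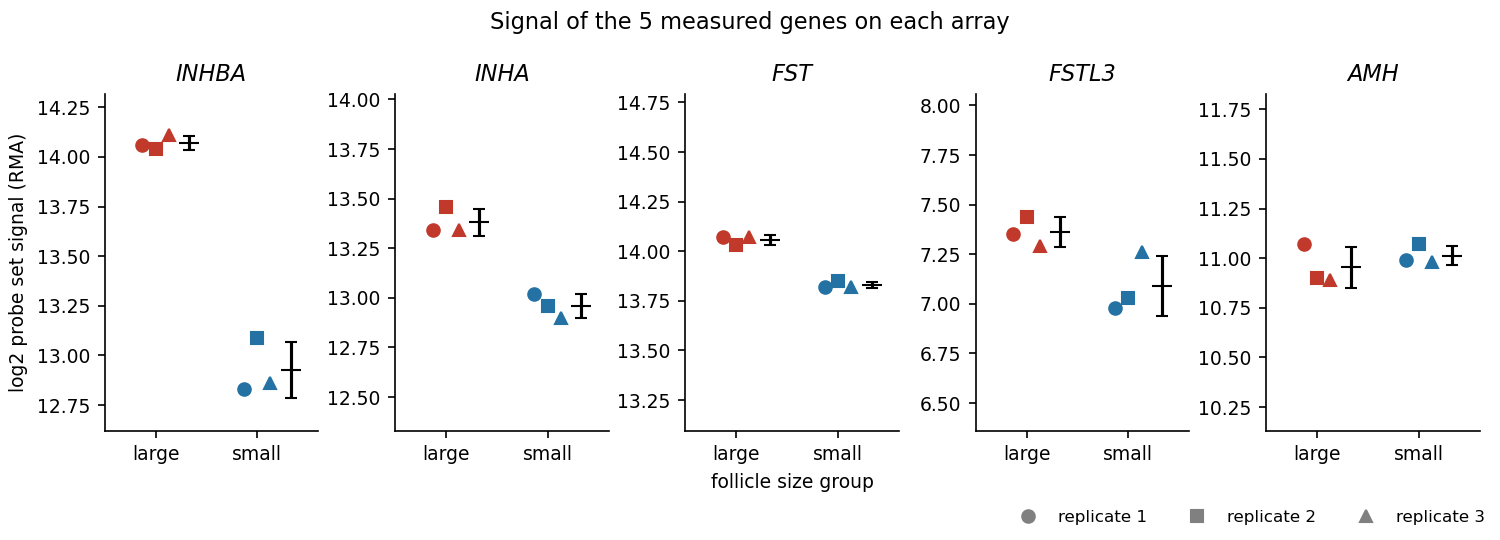
Log2 probe set signal of INHBA, INHA, FST, FSTL3 and AMH on each array, with large-follicle arrays (red) left of small-follicle arrays (blue); symbols mark the replicate and black bars the mean and SD of 3 arrays. All panels span the same number of log2 units. INHBA lies at 14.04 to 14.11 in large-follicle arrays and at 12.83 to 13.09 in small-follicle arrays, while the groups overlap for AMH.

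INHBA encodes the beta A subunit, which pairs with itself in activin A and with the alpha subunit in inhibin A. Its signal was 14.06, 14.04 and 14.11 in large-follicle replicates 1, 2 and 3, against 12.83, 13.09 and 12.86 in small-follicle replicates 1, 2 and 3. The groups were 0.95 apart at their nearest arrays, and the small-follicle arrays spread more, with replicate 2 above the others. The difference was 1.14 ± 0.10 (SE), a ratio of 2.21 with a 95% interval of 1.87 to 2.60, and limma's adjusted p was 0.00107. By size it ranked 383 of 24016 probe sets, and 1.59% had a larger difference in either direction. INHBA passed in each of 15 alternative settings, with differences from 1.09 to 1.23.

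In large-follicle arrays INHBA was among the brightest probe sets of the array, ranked 4 to 10 of 24016, while in small-follicle arrays it ranked 129 to 147. It lay 0.12 to 0.24 below the highest signal of its array in large follicles and 1.23 to 1.53 below it in small follicles. Whether signals this close to the top of the range are compressed was not tested. Of the 126 probe sets whose mean over the 6 arrays was at least that of INHA (13.17), limma called 7 higher and 0 lower (adjusted p). INHA and INHBA are among these 7, and over all probe sets 5.72% were called higher and 7.16% lower. INHBA had the largest increase of the 126, but its small-follicle mean of 12.93 lies below the cut. It entered the set through its large-follicle arrays. INHA sets the cut and is in the set by definition, and its small-follicle mean of 12.96 also lies below the cut. The places of INHBA and INHA among the 7 therefore add no separate support. The median size of the difference in these 126 was 0.06, against 0.15 over all probe sets.

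INHA encodes the alpha subunit, which is required for inhibin and absent from activin. It read 13.34, 13.46 and 13.34 in large-follicle replicates 1, 2 and 3, against 13.02, 12.96 and 12.90 in small-follicle replicates 1, 2 and 3. Every large-follicle array was above every small-follicle array, with a gap of 0.32. The difference was 0.42 ± 0.09 (SE), a ratio of 1.34 with a 95% interval of 1.16 to 1.55, and limma's adjusted p was 0.0224. The call was lost without large-follicle replicate 1 (0.44, limma adjusted p = 0.061), large-follicle replicate 2 (0.38, 0.0702), small-follicle replicate 2 (0.42, 0.0765) or small-follicle replicate 3 (0.39, 0.063).

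FST encodes follistatin, the high-affinity activin antagonist. Its signal was 14.07, 14.03 and 14.07 in large-follicle replicates 1, 2 and 3, against 13.82, 13.85 and 13.82 in small-follicle replicates 1, 2 and 3. The groups did not overlap, and arrays within each group were nearly equal. The residual SD of 0.02 was smaller than that of 99.8% of probe sets. The difference was 0.23 ± 0.09 (SE), with a 95% interval of 0.03 to 0.42, and it did not pass in the limma fit, where each SE draws on the spread of all probe sets (adjusted p = 0.132). With limma's trended and robust prior, 2 options changed together, the SE was 0.05 and FST passed (adjusted p = 0.0136; the 15 alternatives gave 0.0136 to 0.355). FST ranked 5 to 13 in large-follicle arrays and 27 to 43 in small-follicle arrays. It lay 0.16 to 0.25 below the highest signal in large-follicle arrays and 0.47 to 0.57 below it in small-follicle arrays.

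FSTL3, a secreted activin-binding glycoprotein of the follistatin family, ranked 7080 to 7462 of 24016 in large-follicle and 7633 to 8287 in small-follicle arrays. It read 7.35, 7.44 and 7.29 in large-follicle replicates 1, 2 and 3, against 6.98, 7.03 and 7.26 in small-follicle replicates 1, 2 and 3. The groups were separated by 0.03, because small-follicle replicate 3 lay close to the large-follicle arrays. The difference of 0.27 ± 0.11 (SE; 95% interval 0.02 to 0.52) did not pass in limma (adjusted p = 0.152). Without small-follicle replicate 3 it was 0.36, and without small-follicle replicate 1 it was 0.22, and neither passed.

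AMH was the measured gene whose groups overlapped. Its signal was 11.07, 10.90 and 10.89 in large-follicle replicates 1, 2 and 3, against 10.99, 11.07 and 10.98 in small-follicle replicates 1, 2 and 3. The highest value occurred once in each group. The difference was -0.06 ± 0.10 (SE), and its 95% interval of -0.28 to 0.16 corresponds to ratios of 0.82 to 1.12, so that a difference of INHBA's size lies outside it (limma adjusted p = 0.758). For the other 4 measured genes every large-follicle array was higher than every small-follicle array, which held for 14.7% of all probe sets.

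**Figure D2:**
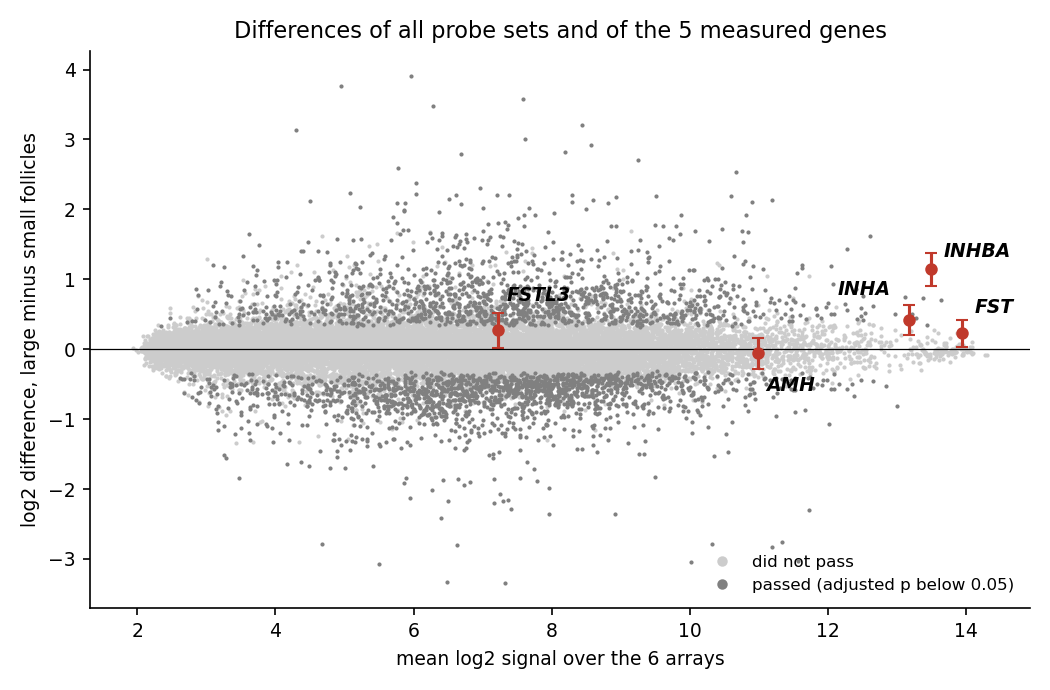
Log2 difference, large minus small follicles, against the mean log2 signal over the 6 arrays for 24016 probe sets; dark grey points passed and light grey points did not. Red points are the 5 measured genes with 95% intervals, and INHBA at 1.14 lies above the other 4, of which AMH at -0.06 is the one below 0.

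The balance between subunits and binding proteins was read within each array, as the log2 signal of one gene minus that of another. The size of such a difference depends on the probe sets, so its change between the groups is what can be compared. INHBA minus INHA was 0.72, 0.58 and 0.77 in large-follicle replicates 1, 2 and 3, against -0.19, 0.13 and -0.04 in small-follicle replicates 1, 2 and 3. The ratio of beta A to alpha transcript was 1.65-fold higher in large follicles, a change of 0.72 on the log2 scale, with no overlap between the groups.

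FST minus INHBA, which sets the binding protein against the activin subunit, was lower in large-follicle arrays. It was 0.01, -0.01 and -0.04 in large-follicle replicates 1, 2 and 3, against 0.99, 0.76 and 0.96 in small-follicle replicates 1, 2 and 3, a change of -0.92. In large-follicle arrays both probe sets lay 0.12 to 0.25 below the highest signal, so any compression there, which was not tested, would touch the size of this change. FSTL3 minus INHBA averaged -6.71 ± 0.11 in large-follicle and -5.84 ± 0.23 in small-follicle arrays (SD, n = 3 each), a change of -0.87. AMH minus INHA averaged -2.43 ± 0.15 in large-follicle and -1.95 ± 0.07 in small-follicle arrays (SD, n = 3 each), a change of -0.48. For each of the 4 pairs that could be formed of 8 listed, the groups did not overlap. The exact permutation test (2-sided) gave p = 0.1 for each, the smallest that 3 against 3 arrays allow, and 0.1 after Benjamini-Hochberg adjustment over the 4 pairs. These differences follow from the same signals as the single genes and are not independent of them.

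**Figure D3:**
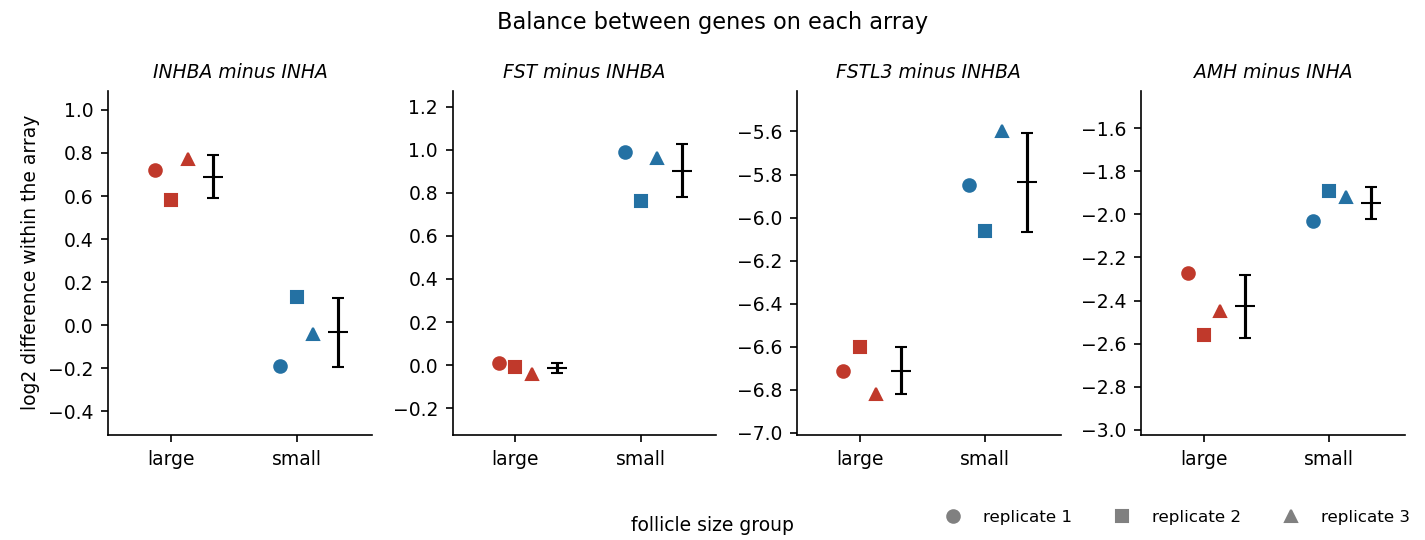
Within-array log2 differences between pairs of genes on each array, with large-follicle arrays (red) left of small-follicle arrays (blue); symbols mark the replicate and black bars the mean and SD of 3 arrays. INHBA minus INHA is higher in large follicles by 0.72, and FST minus INHBA, FSTL3 minus INHBA and AMH minus INHA are lower by 0.92, 0.87 and 0.48.

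A sign of RNA quality and the markers of granulosa and other cells were read beside these results. Control probe sets read the 3' and the 5' end of 6 bovine transcripts, and the mean 3' excess, which grows as labelled RNA becomes shorter, was 1.98 ± 0.19 in large-follicle and 2.46 ± 0.27 in small-follicle arrays (SD, n = 3 each; exact permutation test, 2-sided, p = 0.1). The nearest arrays were at 2.15 in large and 2.16 in small follicles. With this 3' excess as a covariate in limma, INHBA read 1.18 and passed (adjusted p = 0.0458), whereas INHA read 0.43 and did not (adjusted p = 0.178). FST read 0.25, FSTL3 0.05 and AMH 0.03 with the covariate, and none of these 3 passed (limma adjusted p of 0.355, 0.882 and 0.944).

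Markers of granulosa and cumulus cells had a mean level of 10.19 to 10.38 in large-follicle and 9.62 to 9.84 in small-follicle arrays. Of these 8 markers 4 rose, CYP19A1 by 2.14, CYP11A1 by 1.72, NR5A2 and FSHR, and 1 fell, GATM, by 1.20. For this and the following marker lists, with 1 probe set per gene, 7.08% of 9155 genes were called higher and 8.30% lower. The share of genes at an unadjusted p below 0.05 was not counted. The GATM call was lost without small-follicle replicate 1 (-1.23) or 3 (-1.01), with the 3' excess as a covariate (-1.64), with the replicate block and with the trended and robust prior.

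Leukocyte markers were higher in sign for 9 of 9 genes on 1 probe set each, with ITGAM at 0.007 and PTPRC at 0.08. Dimmer probe sets read -0.08 for ITGAM, -0.09 and -0.003 for PTPRC and 0.19 for CD14. The mean level of the leukocyte list was 4.32 to 5.25 in large-follicle and 4.06 to 4.51 in small-follicle arrays. LCP1 at 0.89 and CORO1A at 0.62 passed, but not when any of large-follicle replicates 1 and 2 or small-follicle replicates 1 and 2 was left out (0.69 to 0.86 for LCP1 and 0.50 to 0.66 for CORO1A). Over 14 alternatives LCP1 lost its call in 8 and CORO1A in 7, among them the 3' excess as a covariate (0.57 for LCP1 and 0.48 for CORO1A, limma adjusted p of 0.446 and 0.354), the replicate block and cyclic loess scaling. CD14 read 1.02 ± 0.54, CD68 0.79 ± 0.43 and CD3E 0.19 ± 0.17 (SE) without passing (limma adjusted p of 0.282, 0.288 and 0.555). The median of the leukocyte list was 0.51, against 0.01 over all genes. PTPRC, the pan-leukocyte marker, read 3.57 in large-follicle and 3.49 in small-follicle arrays. Of 9 theca and stroma markers 1 fell, NR2F2 by 0.76, and 0 rose in limma, while at an unadjusted p below 0.05 there were 2 higher and 2 lower. With small-follicle replicate 1 or 2 left out, 1 of these 9 was called higher. With large-follicle replicate 1 or small-follicle replicate 2 left out, 2 of these 9 were called lower. The NR2F2 call was lost with the 3' excess as a covariate (-0.81, limma adjusted p = 0.0837). PDGFRA read 1.37 ± 0.42, ACTA2 0.75 ± 0.24 and COL1A2 -1.08 ± 0.31 (SE), and these 3 did not pass (limma adjusted p of 0.0683, 0.0797 and 0.0539). Dimmer probe sets read 0.07 and -0.06 for PDGFRA and -1.29 for COL1A2. The mean level of the list was 6.30 to 6.74 in large-follicle and 6.28 to 6.86 in small-follicle arrays. CYP17A1, which defines theca cells, read 4.92 in large-follicle and 4.79 in small-follicle arrays, and the theca hormone INSL3 read 9.41 in large-follicle and 9.38 in small-follicle arrays. Of 4 endothelial and 4 surface epithelial markers 0 passed in limma, and the unadjusted p was below 0.05 for 1 endothelial marker, which was higher. With large-follicle replicate 2 left out, 1 endothelial marker was called higher. RMA values have no 0, so absence of a marker cannot be read from them. The part of these cells in the results for INHBA and INHA was not tested.

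Among receptors and co-receptors for activin, inhibin and AMH, 2 of 8 on the array rose and 0 fell (0 at an unadjusted p below 0.05), which leaves 6 that did not pass. The background for lists, with 1 probe set per gene, is 7.08% of 9155 genes called higher and 8.30% called lower. BMPR1B, a type I receptor of the BMP family that AMH can also use, rose by 0.54 ± 0.15 (SE) at a low signal, 4.09 in large-follicle and 3.55 in small-follicle arrays. BMPR2, a type II receptor through which the oocyte factors BMP15 and GDF9 signal, rose by 0.52 ± 0.13 (SE), at 6.50 in large-follicle and 5.98 in small-follicle arrays. Dimmer probe sets of BMPR1B (0.08) and BMPR2 (0.03 and 0.09) did not pass. BMPR1B no longer passed without any 1 of the 6 arrays (0.38 to 0.63), and BMPR2 passed without large-follicle replicate 3 (0.62) but not without any other array (0.42 to 0.60). Neither passed with the 3' excess as a covariate (0.69 for BMPR1B and 0.66 for BMPR2). The type I receptors ACVR1, at 0.39 ± 0.18 (SE), and BMPR1A, at -0.15 ± 0.10 (SE), did not pass, nor did IGSF1, once described as an inhibin-binding protein, at -0.28 ± 0.21 (SE). The activin type II receptors ACVR2A, at 0.11, and ACVR2B, at -0.09, were named for their role after their values were seen and did not pass. The median of the list was 0.08, against 0.01 over all genes.

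SMAD proteins carry the receptor signal to the nucleus, SMAD2 and SMAD3 for activin, SMAD1, SMAD5 and SMAD9 for AMH and BMPs, and SMAD4 for both branches. Of 4 measured SMAD genes 0 passed by limma in either direction, and at an unadjusted p below 0.05 there were 0 as well. SMAD2 averaged 11.53 ± 0.22 in large-follicle and 11.26 ± 0.14 in small-follicle arrays (SD, n = 3 each). SMAD4 averaged 11.65 ± 0.08 in large-follicle and 11.90 ± 0.26 in small-follicle arrays. SMAD5 averaged 5.15 ± 0.07 in large-follicle and 5.34 ± 0.22 in small-follicle arrays. The groups overlapped for each of these probe sets.

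Precursor processing and extracellular binding were covered by 5 genes, of which 1 fell, 4 did not pass and 0 rose (0 at an unadjusted p below 0.05). FBN1, fibrillin-1, whose microfibrils hold TGF-beta family complexes in the matrix, averaged 6.83 ± 0.20 in large-follicle and 8.45 ± 0.22 in small-follicle arrays (SD, n = 3 each). It fell by 1.62 on the log2 scale (SE 0.15, limma adjusted p = 0.00107) and passed in each of 15 alternative settings. The proprotein convertase PCSK7, at -0.09 ± 0.14 (SE), the pseudoreceptor BAMBI, at -0.13 ± 0.38 (SE), and LTBP1, at 0.40 ± 0.28 (SE), did not pass. The median of the list was -0.09.

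Genes known to govern transcription of the inhibin subunits, AMH or follistatin were higher in part: 4 of the 10 on the array rose, none of them fell (0 at an unadjusted p below 0.05), and the median was 0.25. These counts use 1 probe set per gene, which for NR0B1 read 0.12 ± 0.14 (SE). A slightly dimmer NR0B1 probe set read -0.80 ± 0.26 (SE), with a limma p of 0.0146 unadjusted and 0.085 adjusted. GATA4, which activates the inhibin alpha promoter in rodent gonadal cells, averaged 10.53 ± 0.05 in large-follicle and 9.77 ± 0.06 in small-follicle arrays (SD, n = 3 each). It rose by 0.76 ± 0.09 (SE, limma adjusted p = 0.00241). GATA6, a related factor, averaged 12.96 ± 0.13 in large-follicle and 12.34 ± 0.14 in small-follicle arrays (SD, n = 3 each) and rose by 0.62 ± 0.11 (SE). The nuclear receptor NR5A2 averaged 9.35 ± 0.18 in large-follicle and 8.66 ± 0.04 in small-follicle arrays (SD, n = 3 each) and rose by 0.70 ± 0.11 (SE).

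FSHR, the receptor for FSH, which stimulates inhibin secretion, averaged 8.35 ± 0.11 in large-follicle and 7.79 ± 0.22 in small-follicle arrays (SD, n = 3 each), a rise of 0.56 ± 0.13 (SE). That call held without small-follicle replicate 3 (0.67) and was lost without large-follicle replicate 1 (0.62), 2 (0.51) or 3 (0.56) and without small-follicle replicate 1 (0.56) or 2 (0.46). With the 3' excess as a covariate 0 of the 10 passed in limma, with GATA4 at 0.74 (adjusted p = 0.0645), NR5A2 at 0.53 (0.154), GATA6 at 0.45 (0.208) and FSHR at 0.29 (0.394). FOXL2, which drives follistatin transcription in mouse, read 0.31 ± 0.13 (SE), the oestrogen receptor ESR2 0.20 ± 0.14 (SE) and CREM -0.28 ± 0.13 (SE), and none of these 3 passed (limma adjusted p of 0.188, 0.41 and 0.197). CREM encodes, among others, the repressor ICER, which lowers inhibin alpha transcription in rat granulosa cells. Its 6 probe sets disagreed: a dimmer one rose by 0.68 ± 0.11 (SE, limma adjusted p = 0.00716), at 5.80 in large-follicle and 5.12 in small-follicle arrays.

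Of 3 measured oocyte ligands that act on cumulus cells 0 passed by limma, and 0 had an unadjusted p below 0.05. GDF9 read 4.81 ± 0.04 in large-follicle and 4.77 ± 0.18 in small-follicle arrays (SD, n = 3 each). BMP15 read 3.90 ± 0.18 in large-follicle and 3.74 ± 0.31 in small-follicle arrays. FGF8 read 4.14 ± 0.15 in large-follicle and 3.90 ± 0.15 in small-follicle arrays. A slightly dimmer FGF8 probe set went the other way, at 3.74 in large-follicle and 3.93 in small-follicle arrays, and did not pass. The groups did not overlap on either FGF8 probe set.

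**Figure D4:**
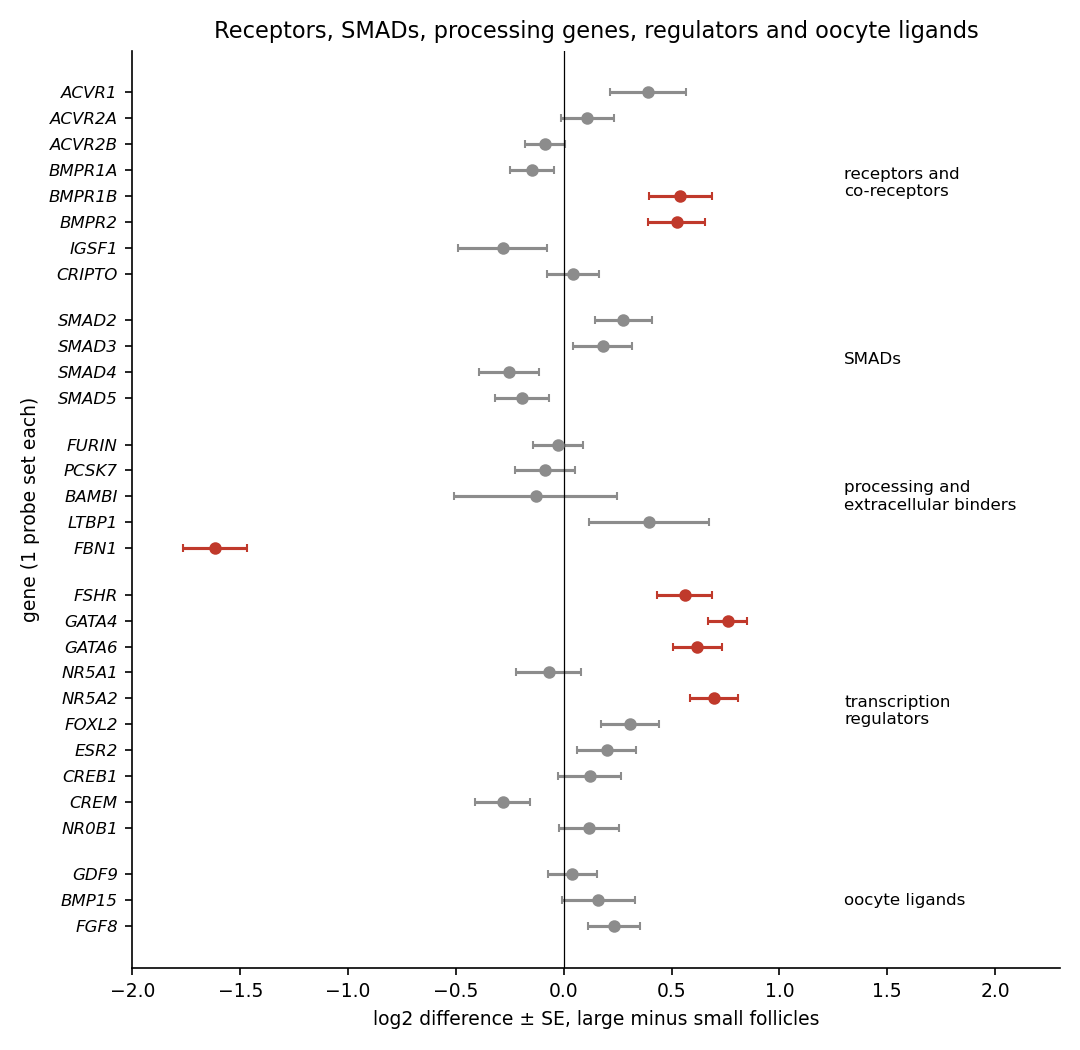
Log2 difference, large minus small follicles, with SE, for each measured gene of 5 lists, read from the probe set with the highest mean signal; red points passed and grey points did not. FBN1 at -1.62 lies furthest from 0, and GATA4, NR5A2, GATA6 and FSHR lie between 0.56 and 0.76.

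The genes whose signal followed INHBA most closely over the 6 arrays, by Pearson correlation and 1 probe set per gene, were PLOD1 (r = 0.998), CHUK (0.998), APBA3 (0.998), CRABP2 (0.997) and BTG3 (0.995). CRABP2, a retinoic acid-binding protein, averaged 7.79 ± 0.09 in large-follicle and 6.47 ± 0.21 in small-follicle arrays (SD, n = 3 each). PLOD1, a collagen lysyl hydroxylase, averaged 11.19 ± 0.02 in large-follicle and 10.64 ± 0.07 in small-follicle arrays (SD, n = 3 each). For INHA they were RUNDC1 (r = 0.9995), HPCAL1 (0.995), ELL (0.994), SZRD1 (0.992) and ALDH3B1 (0.991). The 2 sets share no gene. The 6 arrays form 2 groups, so any gene that differs between the groups gains in r: 291 of 8948 genes reached 0.95 with INHBA and 147 with INHA.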

How the data were processed

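The deposited table holds log2 signals per probe set for 6 Affymetrix bovine arrays, in 1 column each. The submitters' processing notes name RMA as the authors' method; the sources used here state neither its version nor its settings. Of 24128 probe sets, 112 controls were left out. In the platform annotation 13292 probe sets have 1 gene symbol, 86 several and 10638 none; 13263 matched the RefSeq annotation of ARS-UCD2.0 by gene identifier, which changed 0 symbols. The array files give no genome build, so no coordinates are printed.

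Differences, large minus small follicles, were estimated in R 4.3.3 by limma 3.58.1, using lmFit and then eBayes with a constant prior, without a block or a filter, and with Benjamini-Hochberg adjustment over 24016 probe sets. The moderated test had 8.28 degrees of freedom, 4.28 of them from the prior. The array number limits the precision. Lists use the probe set with the highest mean per gene, and no set test was run. Named genes are the system's genes, list genes that passed and up to 3 others per list with the smallest p, and the 5 genes most like INHBA and INHA. Outside this rule, PTPRC, ITGAM, CYP17A1, INSL3, ACVR2A, ACVR2B and NR0B1 were also named. The genes and lists were chosen with earlier results of these data known. The alternatives for list genes and list counts were added after the data were seen. On simulated data with known changes among 24016 probe sets, limma recovered 14.9% of 67 probe sets changed by 0.5 log2 units, 65.7% of 67 changed by 1 unit and 97.0% of 66 changed by 2 units. The data had far more calls than the simulation had changes, 1374 higher and 1720 lower. The adjustment is stricter when few probe sets change, so these shares do not give the recovery in the data.

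The main fit did not treat same-numbered arrays as pairs, since the labels give a number and no pairing. A check is given with the alternatives, and it cannot decide whether the arrays were paired. Figures were drawn with matplotlib 3.10.9.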

Additional observations from a re-analysis of the deposited data

How the results depend on the processing

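INHBA passed in the 15 alternatives run for it. The 4 within-array balances kept their direction in the 10 run for them (scalings, each array left out, pairs by number), and were not run with the 3' excess of the control transcripts: INHBA minus INHA changed by 0.65 to 0.81 without 1 array, FST minus INHBA by -0.99 to -0.87, FSTL3 minus INHBA by -0.99 to -0.76 and AMH minus INHA by -0.56 to -0.41. Each measured gene has 1 probe set, so averaging probe sets changes nothing. Of the measured genes, 1 and not 2 were called higher with the replicate block, with that 3' excess as a covariate and at a threshold of 0.01, and 1 to 2 without 1 array; 0 were called lower in each. AMH turned to 0.026 with the 3' excess.

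Over all probe sets, 99 were called higher and 116 lower with the 3' excess, 528 and 535 at a threshold of 0.01, 930 and 1034 with the replicate block, and 787 to 1142 higher and 828 to 1337 lower without 1 array; the cause was not tested. Same-numbered arrays deviated from their group means with correlations of -0.002, -0.05 and -0.34. Deviations cancel out within each group by construction, so these values cannot exclude pairing. The replicate block rests on a number alone. With this block INHA read 0.42 (limma adjusted p = 0.0694). The paired balances reached an exact p = 0.25, the smallest 3 pairs allow.

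Some list genes that did not pass changed sign: with the 3' excess IGSF1 (0.32), PCSK7 (0.18), BAMBI (1.06) and GDF9 (-0.087), BAMBI also with array weights (0.12) and without 1 array (-0.53 to 0.16), and GDF9 without 1 array (-0.063 to 0.11).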
